A study of Mus musculus with 7 samples.

Results

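The type I interferon response was followed through 40 genes, given as a list of symbols that holds interferon-stimulated genes, nucleic acid sensors, transcription factors and the ligand gene Ifnb1. All 40 had a row among the 55417 of the count table, and all 40 passed the filter on low counts that left 13329 tested genes. The list was chosen with earlier results of these data known.

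Type I interferons are secreted proteins that cells make when sensors of foreign or misplaced nucleic acid are engaged. They bind the receptor Ifnar1/Ifnar2, whose kinases Jak1 and Tyk2 activate Stat2. With Irf9 it takes part in a complex that binds the interferon-stimulated response element (ISRE) in promoters and turns on antiviral effectors, the sensors themselves and feedback inhibitors. Macrophages are known for a low constant activity of this pathway without infection.

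RNA sequencing measured RAW264.7 cells, a mouse macrophage-like line, in 3 groups. All libraries came from cells carrying a short hairpin RNA. Hairpins shDpep2.968 (n = 2) and shDpep2.759 (n = 2) target Dpep2, a membrane dipeptidase gene, and shNT (n = 3) is the control hairpin. The labels name no stimulus, age of culture, vector or clone, nor the origin of the replicates. The p-values therefore measure how far these libraries spread, which may be technical spread only. In bulk RNA, fewer cells of a kind and less RNA per cell cannot be told apart.

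Total counts ran from 16548648 to 18401060 per library. Dpep2 stood between 17.9 and 24.9 CPM (counts scaled by library size, with TMM factors) in the 4 libraries with a Dpep2 hairpin, and between 52.1 and 60.3 CPM with shNT. Of 8 macrophage markers 7 were at 127.5 CPM or more in every library, and Mertk was at 0.347 CPM or less. Adgre1 alone among them was called against shNT averaged over both Dpep2 hairpins (log2 fold change 0.57, edgeR adjusted p = 0.00397). It measured 141, 127.5 and 131 CPM with shNT, 145 and 155 CPM with shDpep2.968, and 252 and 265 CPM with shDpep2.759. Lymphocyte markers summed to 8.61 to 11.5 CPM with the Dpep2 hairpins and 13.9 to 19.0 CPM with shNT, mostly Ighm, with Cd3e and Nkg7 at 0. Fibroblast markers summed to 2.20 to 3.57 CPM and 0.725 to 1.64 CPM, and neutrophil markers to 33.9 to 236.7 CPM and 17.3 to 33.7 CPM, nearly all of it S100a8, with Ly6g at 0. Plasmacytoid dendritic cell markers, Bst2 among them, summed to 542 to 981 CPM and 572 to 695 CPM, with Siglech at 0 in all but 1 library. Epithelial markers summed to at most 0.173 CPM. Outside the macrophage list, Ighm was called lower averaged over both Dpep2 hairpins (log2 fold change -0.86, edgeR adjusted p = 0.0062). The fibroblast marker Dcn was called higher (1.37, edgeR adjusted p = 0.0274), at 2.36 CPM or less in every library. The call of Dcn was lost in 6 of 7 refits with 1 library fewer. The part of these differences in the results was not tested.

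Averaged over both Dpep2 hairpins, 19 of the 40 interferon response genes rose against shNT and none fell, nor was any lower at an unadjusted p under 0.05 or by DESeq2 or limma-voom. The main test was edgeR's quasi-likelihood test at a Benjamini-Hochberg adjusted p under 0.05 over all tested genes, and 3.44% of all tested genes passed it as higher, 4.15% as lower and 7.59% in either direction. The largest increases were in Ifit3b, Ifit1, Ifit3 and Mx1, whereas Oas1a, Oas1g, Oas3, Irf7, Bst2 and Dhx58 did not pass. The median log2 fold change of the 40 was 0.50, beside 0.00 over all tested genes. All 4 hairpin libraries lay above all 3 shNT libraries for 26 of the 40 genes and below them for none, beside 9.03% of all tested genes above and 9.51% below. In 13 of the 19 the call was kept whichever library was left out. The other 6 (Ifit2, Stat2, Xaf1, Ifi204, Ifi44 and Eif2ak2) each lost it when shDpep2.968 replicate 2, or shNT replicate 2 or 3, was left out. In those fits 13 of the 40 were called, beside 3.54%, 2.69% and 2.43% of all genes. Eif2ak2 also lost it without shDpep2.759 replicate 2, and Xaf1 without shNT replicate 1.

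**Figure D1:**
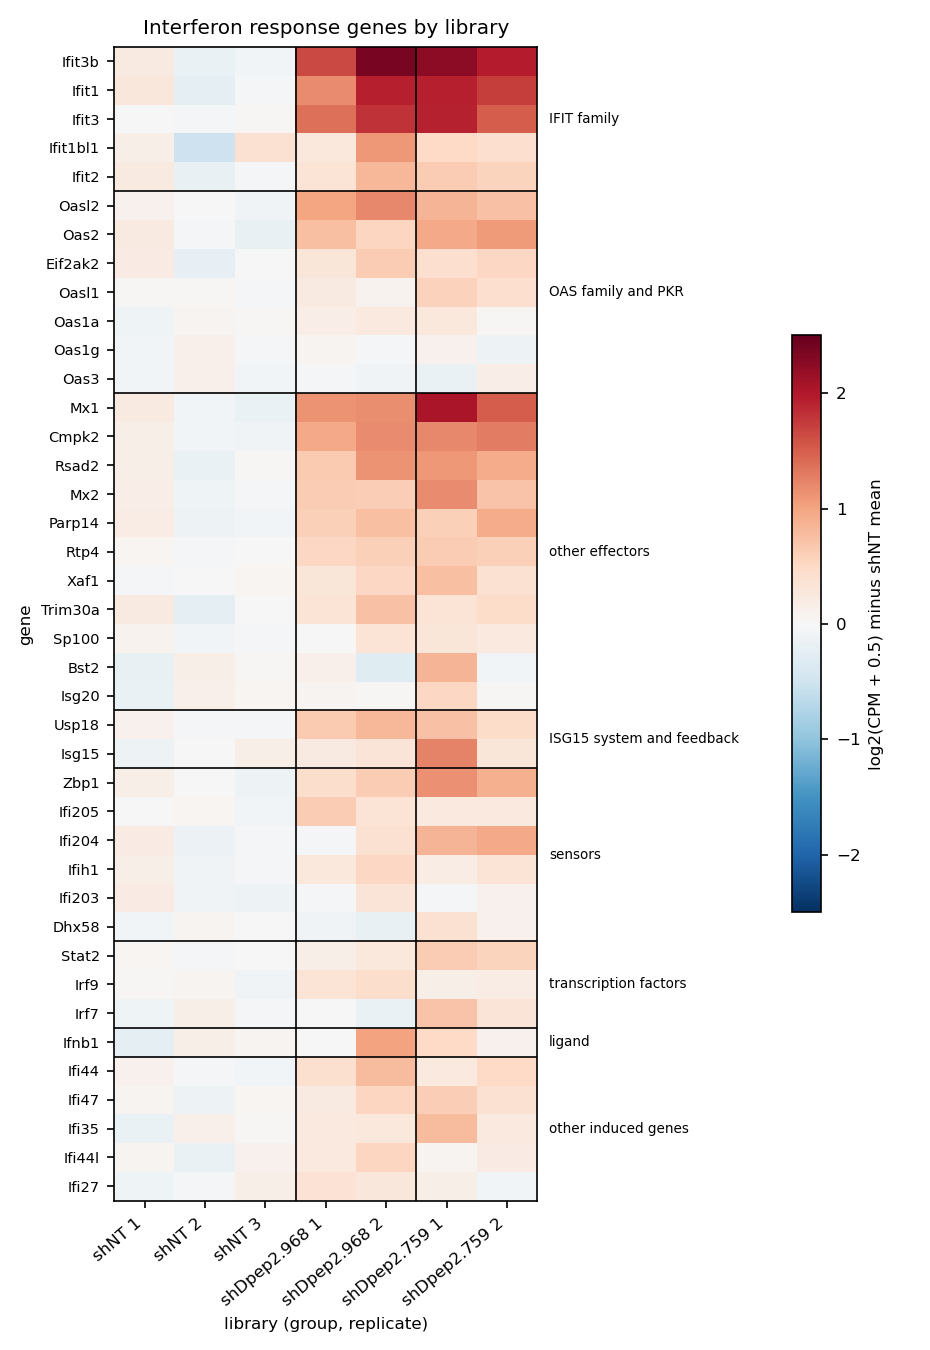
Level of each of the 40 genes (rows, grouped by role) in each of the 7 libraries (columns), as log2(CPM + 0.5) minus the mean of the 3 shNT libraries. Red marks levels above the shNT mean: Ifit3b, Ifit1, Ifit3 and Mx1 have the highest mean over the hairpin libraries among genes above 1 CPM, and Oas1g and Oas3 stay near the shNT mean in every library.

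The ISRE is the sequence through which the interferon-activated complex acts, so the promoters were set beside the fold changes. RefSeq promoter windows (GRCm38.p6, 250 bases before to 50 after the annotated start) were matched by symbol for 30 of the 40 genes, all but Oas2, Mx1, Mx2, Parp14, Rtp4, Usp18, Dhx58, Zbp1, Ifi204 and Ifi27. The ISRE core, GAAA followed by any 2 bases and GAAA, was searched on both strands with overlapping matches counted. It was found in 16 of the 30, or 53.3%, beside 3.99% of all 27025 genes with a window. It was found in 6 of 11 genes that rose and in 10 of 19 that did not pass the threshold, or 54.5% and 52.6%. All genes without a window but Dhx58 and Ifi27 rose, so these shares leave out mostly genes that rose. The GAS element TTCNNNGAA, another element of interferon-responsive promoters, was found in 6 of the 30 (20.0%) and in 9.55% of all genes.

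The 200 bases before the start are printed for 4 genes that rose and hold the core, then for 4 that hold it and did not pass. They were chosen after the values were seen. Capitals mark the ISRE core or its reverse complement, and overlapping copies run together. Regions are Ifit3b (chr19:34607757-34607956, plus strand), Ifit3 (chr19:34583329-34583528, plus strand), Ifit1 (chr19:34640689-34640888, plus strand) and Rsad2 (chr12:26456453-26456652, minus strand).
Ifit3b: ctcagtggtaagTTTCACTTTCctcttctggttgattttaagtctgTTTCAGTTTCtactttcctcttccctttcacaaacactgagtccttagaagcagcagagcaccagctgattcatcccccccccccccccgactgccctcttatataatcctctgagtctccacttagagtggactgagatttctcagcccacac
Ifit3: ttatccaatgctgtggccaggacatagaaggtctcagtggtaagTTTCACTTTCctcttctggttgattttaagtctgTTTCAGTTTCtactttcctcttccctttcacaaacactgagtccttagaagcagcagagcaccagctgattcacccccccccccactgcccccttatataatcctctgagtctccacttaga
Ifit1: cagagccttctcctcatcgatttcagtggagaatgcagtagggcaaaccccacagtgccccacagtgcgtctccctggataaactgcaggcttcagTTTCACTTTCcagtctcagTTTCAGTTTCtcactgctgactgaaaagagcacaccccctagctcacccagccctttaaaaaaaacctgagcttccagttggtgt
Rsad2: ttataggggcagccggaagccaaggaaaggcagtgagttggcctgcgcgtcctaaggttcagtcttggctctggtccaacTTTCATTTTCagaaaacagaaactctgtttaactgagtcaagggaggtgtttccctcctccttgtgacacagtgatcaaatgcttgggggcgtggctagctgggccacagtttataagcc

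The genes that hold the core and did not pass are Isg15 (chr4:156200819-156201018, minus strand), Oas1a (chr5:120907526-120907725, minus strand), Oas1g (chr5:120887614-120887813, minus strand) and Bst2 (chr8:71537473-71537672, minus strand).
Isg15: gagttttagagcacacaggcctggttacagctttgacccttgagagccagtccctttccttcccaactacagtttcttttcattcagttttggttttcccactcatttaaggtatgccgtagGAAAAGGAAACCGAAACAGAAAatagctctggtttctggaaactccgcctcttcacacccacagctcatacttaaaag
Oas1a: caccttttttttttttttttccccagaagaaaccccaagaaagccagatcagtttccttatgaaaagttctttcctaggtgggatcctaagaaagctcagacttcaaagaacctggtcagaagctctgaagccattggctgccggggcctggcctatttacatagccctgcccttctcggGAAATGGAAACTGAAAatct
Oas1g: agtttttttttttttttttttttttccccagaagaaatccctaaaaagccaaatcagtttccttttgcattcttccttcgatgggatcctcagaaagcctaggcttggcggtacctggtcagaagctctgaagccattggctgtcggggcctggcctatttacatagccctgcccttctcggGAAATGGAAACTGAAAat
Bst2: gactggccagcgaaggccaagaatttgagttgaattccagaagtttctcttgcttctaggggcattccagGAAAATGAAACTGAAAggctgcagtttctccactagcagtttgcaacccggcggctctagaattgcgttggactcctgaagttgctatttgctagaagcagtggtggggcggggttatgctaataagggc

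Ifit3 and Ifit3b have 2 copies each, in the same order and spacing, and their windows were identical at 258 of 260 aligned bases (99.2%). Ifit1 has 2 copies with the same letters as the Ifit3 pair, closer to its start and to each other. Isg15 has 3 overlapping copies, and Oas1a, Oas1g and Bst2 have 2 overlapping copies each. Oas1a and Oas1g were identical at 88.8% of aligned bases, and their copies lie within 20 bases of the start, nearer than in the other 6 printed promoters. A match is a description of letters in this window and does not show that a factor binds there.

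**Figure D2:**
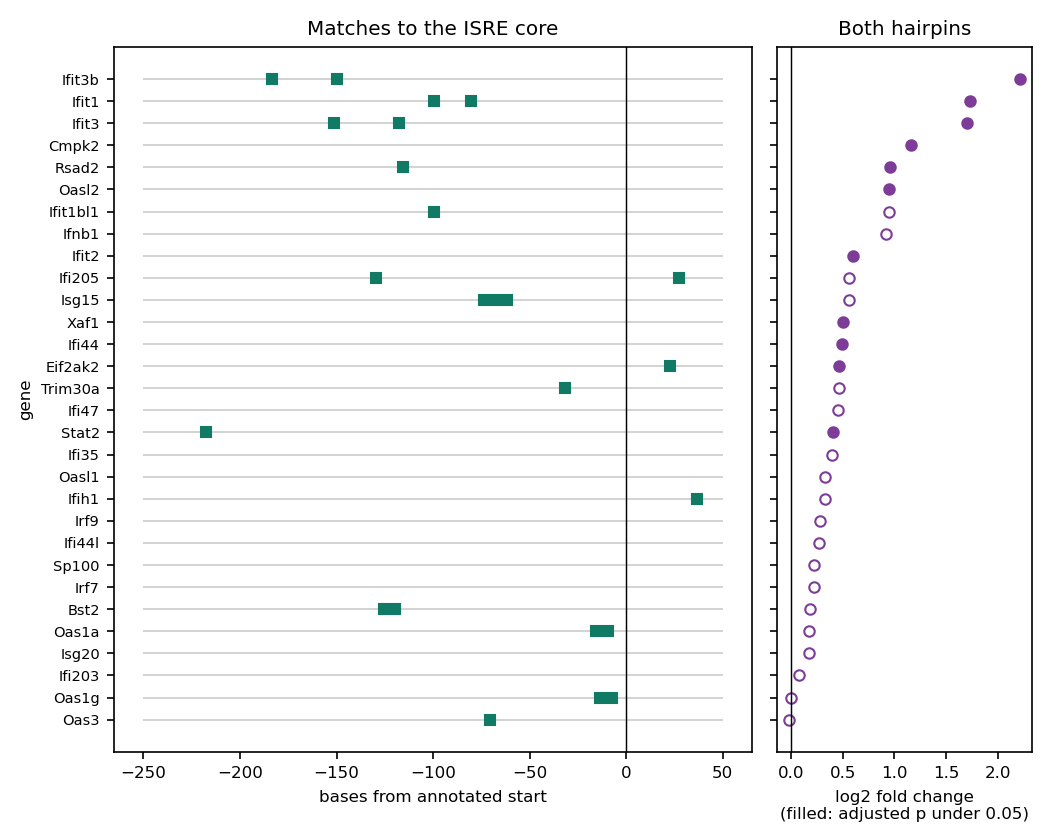
Left, matches to the ISRE core (green squares) in the first listed RefSeq window of the 30 genes with one, by distance in bases from the annotated start. Right, the averaged log2 fold change of each gene (filled circles, edgeR adjusted p under 0.05). Genes with matches are found at the top and at the bottom of the order of fold changes, from Ifit3b at 2.22 to Oas3 at -0.02.

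IFIT proteins bind viral RNA and block its translation, and 4 of the 5 family members rose. Ifit3b measured 4.23, 3.12 and 3.35 CPM in the shNT libraries, 12.3 and 20.3 CPM in the shDpep2.968 pair, and 18.6 and 15.3 CPM in the shDpep2.759 pair. The lowest hairpin library was well above the highest shNT library, and the averaged log2 fold change was 2.22 (SE 0.20, edgeR adjusted p = 8.39e-05). Ifit3 measured 17.1, 16.4 and 17.3 CPM in the shNT libraries, 45.0 and 60.9 CPM in the shDpep2.968 pair, and 65.6 and 49.0 CPM in the shDpep2.759 pair. Its shNT mean was 16.9 ± 0.44 CPM (SD, n = 3), no hairpin library came near it, and its log2 fold change was 1.70 (SE 0.14, edgeR adjusted p = 6.2e-05).

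Reads of this pair are hard to divide. Of the 31-base words in the longest GENCODE M21 transcript, 61.8% of those of Ifit3 also occur in Ifit3b transcripts and 54.1% of those of Ifit3b in Ifit3. Their separate values are therefore uncertain, whereas either alone or their sum was higher in every hairpin library. Ifit1, which binds RNA caps lacking ribose methylation, shares 10.5% of its words with other genes. It measured 28.8, 20.0 and 22.6 CPM in the shNT libraries, 54.4 and 92.4 CPM in the shDpep2.968 pair, and 92.2 and 79.1 CPM in the shDpep2.759 pair. The groups did not overlap, with shDpep2.968 replicate 1 the lowest hairpin library for all 3 genes, and the log2 fold change was 1.74 (SE 0.20, edgeR adjusted p = 0.000908).

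Ifit2, which shares no 31-base word with another gene, had a smaller fold change. It measured 52.8, 39.3 and 44.0 CPM in the shNT libraries, 57.5 and 80.8 CPM in the shDpep2.968 pair, and 70.2 and 66.2 CPM in the shDpep2.759 pair. The groups did not overlap, but shDpep2.968 replicate 1 came close to shNT replicate 1, and the log2 fold change was 0.60 (SE 0.14, edgeR adjusted p = 0.0194). Ifit1bl1, a further family member, averaged 0.478 CPM with shNT, 1.07 CPM with shDpep2.968 and 0.802 CPM with shDpep2.759, and did not pass (log2 fold change 0.95, SE 0.50, adjusted p = 0.274).

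**Figure D3:**
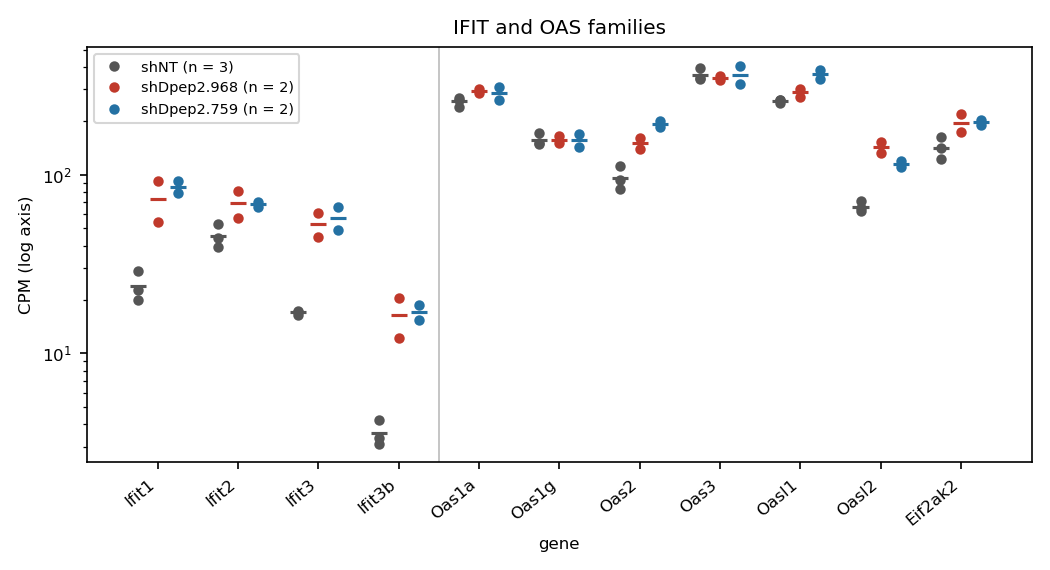
CPM on a log axis of 4 IFIT genes, the 6 OAS family genes and Eif2ak2 (which encodes PKR) in each library (points), with group means as bars. Ifit1, Ifit3 and Ifit3b of the hairpin groups lie clear of shNT, and Oas1a, Oas1g and Oas3 overlap between groups.

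OAS enzymes respond to double-stranded RNA by making oligoadenylates that activate RNase L. Their family was divided: Oasl2 and Oas2 rose, and Oas1a, Oas1g, Oas3 and Oasl1 did not pass. Oasl2 measured 70.8, 65.5 and 62.3 CPM in the shNT libraries, 132 and 153 CPM in the shDpep2.968 pair, and 119.9 and 111 CPM in the shDpep2.759 pair. No libraries overlapped, and the log2 fold change was 0.95 (SE 0.10, edgeR adjusted p = 0.00025). Oas2 measured 111, 93.2 and 83.5 CPM in the shNT libraries, 161 and 139 CPM in the shDpep2.968 pair, and 185 and 199 CPM in the shDpep2.759 pair. All hairpin libraries were higher than all shNT libraries, and the log2 fold change was 0.82 (SE 0.12, edgeR adjusted p = 0.0015).

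The other OAS family members had higher mean CPM with shNT than Oasl2 and Oas2. The part of this level in their fold changes was not tested. Oas1a averaged 257 ± 16.9 CPM (SD, n = 3) with shNT and ran from 261 to 310.3 CPM in the hairpin libraries (log2 fold change 0.17, 95% interval -0.06 to 0.40). Oas1g averaged 156 ± 12.0 CPM and ran from 143 to 168 CPM (0.00, -0.23 to 0.23). Oas3 averaged 362 ± 27.9 CPM and ran from 320.2 to 407 CPM (-0.02, -0.27 to 0.22). The hairpin and shNT libraries of all 3 overlapped, and Oas1a and Oas1g share 68.7% and 64.8% of their 31-base words with each other. Oasl1, known to restrain translation of Irf7, had a log2 fold change of 0.33 (edgeR adjusted p = 0.0687), with 250.3 to 263 CPM for shNT and 274 to 385 CPM in the hairpin libraries.

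Eif2ak2 encodes PKR, the kinase that stops translation when it binds double-stranded RNA. It measured 163, 122 and 141 CPM in the shNT libraries, 173 and 218 CPM in the shDpep2.968 pair, and 189 and 203 CPM in the shDpep2.759 pair. The groups did not overlap, and the log2 fold change was 0.46 (SE 0.12, edgeR adjusted p = 0.0391).

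Of 11 other effectors 7 rose: Cmpk2, Mx1, Rsad2, Rtp4, Parp14, Mx2 and Xaf1. Cmpk2 encodes a mitochondrial nucleotide kinase and measured 64.2, 55.1 and 54.5 CPM in the shNT libraries, 113 and 131 CPM in the shDpep2.968 pair, and 134 and 141 CPM in the shDpep2.759 pair. No hairpin library came near the highest shNT library, and the log2 fold change was 1.16 (SE 0.11, edgeR adjusted p = 8.39e-05). Rsad2, its neighbour in the genome, encodes viperin, which makes a chain-terminating nucleotide. It measured 100.1, 81.5 and 92.3 CPM in the shNT libraries, 144 and 199.8 CPM in the shDpep2.968 pair, and 193 and 172 CPM in the shDpep2.759 pair. Those groups did not overlap either, and the log2 fold change was 0.96 (SE 0.13, edgeR adjusted p = 0.000981).

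The dynamin-like GTPase gene Mx1 had the largest change outside the IFIT family among the 40. It measured 6.59, 5.26 and 4.86 CPM in the shNT libraries, 12.5 and 13.1 CPM in the shDpep2.968 pair, and 24.4 and 16.8 CPM in the shDpep2.759 pair. All hairpin libraries were higher, most of all shDpep2.759 replicate 1, and the log2 fold change was 1.55 (SE 0.17, edgeR adjusted p = 0.000272). Mx2, which shares 11.8% of its words with Mx1, had a log2 fold change of 0.81 (SE 0.14, edgeR adjusted p = 0.00346). Rtp4, known to restrain Tbk1 signalling, measured 54.4, 50.7 and 53.1 CPM in the shNT libraries, 75.8 and 80.1 CPM in the shDpep2.968 pair, and 81.8 and 80.0 CPM in the shDpep2.759 pair. The groups lay well apart, and the log2 fold change was 0.59 (SE 0.09, edgeR adjusted p = 0.0028).

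Parp14, an ADP-ribosyltransferase, and the pro-apoptotic gene Xaf1 had log2 fold changes of 0.72 (SE 0.12) and 0.50 (SE 0.12). Trim30a, which restrains Toll-like receptor signalling, lay on the threshold (0.46, SE 0.13, edgeR adjusted p = 0.0503), and all its hairpin libraries (222 to 291 CPM) were above all shNT libraries (151 to 205 CPM). The nuclear body gene Sp100 (0.23, SE 0.11), the exonuclease gene Isg20 (0.17, SE 0.13) and Bst2 (0.19, SE 0.21) did not pass. Bst2 encodes tetherin, which holds budding virus at the cell surface. It measured 393, 495 and 452 CPM in the shNT libraries, 483 and 359 CPM in the shDpep2.968 pair, and 801 and 425 CPM in the shDpep2.759 pair, with shDpep2.759 replicate 1 far above the rest and shDpep2.968 replicate 2 the lowest of all.

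Isg15 is a ubiquitin-like protein that is joined to other proteins, and Usp18 removes it and also blocks the interferon receptor. Usp18 measured 196, 176 and 178 CPM in the shNT libraries, 288 and 328 CPM in the shDpep2.968 pair, and 305 and 253 CPM in the shDpep2.759 pair. The groups did not overlap, and the log2 fold change was 0.68 (SE 0.11, edgeR adjusted p = 0.00308). Isg15 measured 85.5, 92.3 and 103 CPM in the shNT libraries, 109 and 116.6 CPM in the shDpep2.968 pair, and 221 and 115 CPM in the shDpep2.759 pair. Its groups did not overlap, but the shDpep2.759 libraries lay far apart, and the log2 fold change of 0.56 (SE 0.20) did not pass (edgeR adjusted p = 0.129).

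Among 6 sensors Zbp1 and Ifi204 rose. Zbp1, a sensor of Z-form nucleic acid that can start necroptosis, measured 54.6, 49.3 and 45.1 CPM in the shNT libraries, 67.0 and 77.2 CPM in the shDpep2.968 pair, and 111 and 91.6 CPM in the shDpep2.759 pair. All hairpin libraries were higher, those with shDpep2.759 most, and the log2 fold change was 0.78 (SE 0.11, edgeR adjusted p = 0.00162). Ifi204, a DNA sensor of the PYHIN family, measured 80.1, 62.5 and 67.3 CPM in the shNT libraries, 67.1 and 90.3 CPM in the shDpep2.968 pair, and 126 and 135 CPM in the shDpep2.759 pair. Of the 19 genes that rose it alone had hairpin and shNT libraries that overlapped, through shDpep2.968 replicate 1, and the log2 fold change was 0.53 (SE 0.13, edgeR adjusted p = 0.0225). Ifi204 shares 46.0% of its 31-base words with other genes, and 29.5% of its words occur in Ifi211, so its value is uncertain.

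The RNA sensors Ifih1 and Dhx58 did not pass. Ifih1 (MDA5) had a log2 fold change of 0.33 (SE 0.11, edgeR adjusted p = 0.0895) and no overlap between hairpin and shNT libraries. Dhx58 (LGP2), which tunes the other RNA sensors, had 0.06 (95% interval -0.16 to 0.28). The PYHIN genes Ifi203 and Ifi205 had 0.08 (SE 0.12) and 0.57 (SE 0.33), the latter from 0.721 CPM with shNT.

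Of 3 transcription factors Stat2 rose. It measured 109.7, 103 and 105 CPM in the shNT libraries, 117.4 and 128 CPM in the shDpep2.968 pair, and 165 and 156 CPM in the shDpep2.759 pair. The groups did not overlap, with shDpep2.968 close to shNT, and the log2 fold change was 0.41 (SE 0.09, edgeR adjusted p = 0.0207). Its partner Irf9 had 0.28 (SE 0.10, adjusted p = 0.0933) and no overlap. Irf7, the factor that amplifies interferon production, measured 549, 660.5 and 574 CPM in the shNT libraries, 598 and 529 CPM in the shDpep2.968 pair, and 971 and 744 CPM in the shDpep2.759 pair. The shDpep2.968 libraries lay within or below the shNT range and those of shDpep2.759 above it, and the averaged log2 fold change was 0.23 (SE 0.12, edgeR adjusted p = 0.308).

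The ligand gene Ifnb1 was near the limit of detection in all groups. It had 3, 7 and 6 counts with shNT, 5 and 19 counts with shDpep2.968 and 11 and 6 counts with shDpep2.759, or 0.181 to 1.09 CPM. The groups overlapped, and at this depth the averaged log2 fold change of 0.92 had a 95% interval of -0.32 to 2.16 (edgeR adjusted p = 0.358). The interferon genes Ifna1, Ifna2, Ifna4, Ifna5, Ifnl2 and Ifnl3 had 0 counts in all 7 libraries, which allows up to 3 counts, or 0.0245 CPM, over the libraries together, counting error only. Ifng and Ifnk had at most 1 count per library.

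Of the remaining 5 induced genes Ifi44 rose. It measured 384, 347 and 339 CPM in the shNT libraries, 471 and 617 CPM in the shDpep2.968 pair, and 419.6 and 505 CPM in the shDpep2.759 pair. All hairpin libraries were higher, and the log2 fold change was 0.49 (SE 0.12, edgeR adjusted p = 0.032). Ifi47, a GTPase gene, had 0.46 (SE 0.13, adjusted p = 0.0515), Ifi35 0.39 (SE 0.13), Ifi44l 0.27 (SE 0.11) and Ifi27 0.18 (SE 0.11).

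Levels of different genes were compared per kilobase of the longest transcript (CPM per kb). With shNT the highest were Bst2 at 563.9, Irf7 at 183.5, Oas1a at 136.5, Isg15 at 123.9, Oasl1 at 118.6 and Usp18 at 103.4 CPM per kb. The lowest were Ifit1bl1 at 0.217, Ifi205 at 0.220, Ifnb1 at 0.400, Mx1 at 1.65 and Ifit3b at 1.78 CPM per kb. Of the 6 highest only Usp18 rose. Across the 40 genes the shNT level and the averaged log2 fold change had a Spearman correlation of -0.68, a description only, since the shNT libraries enter both values and the genes share all libraries.

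**Figure D4:**
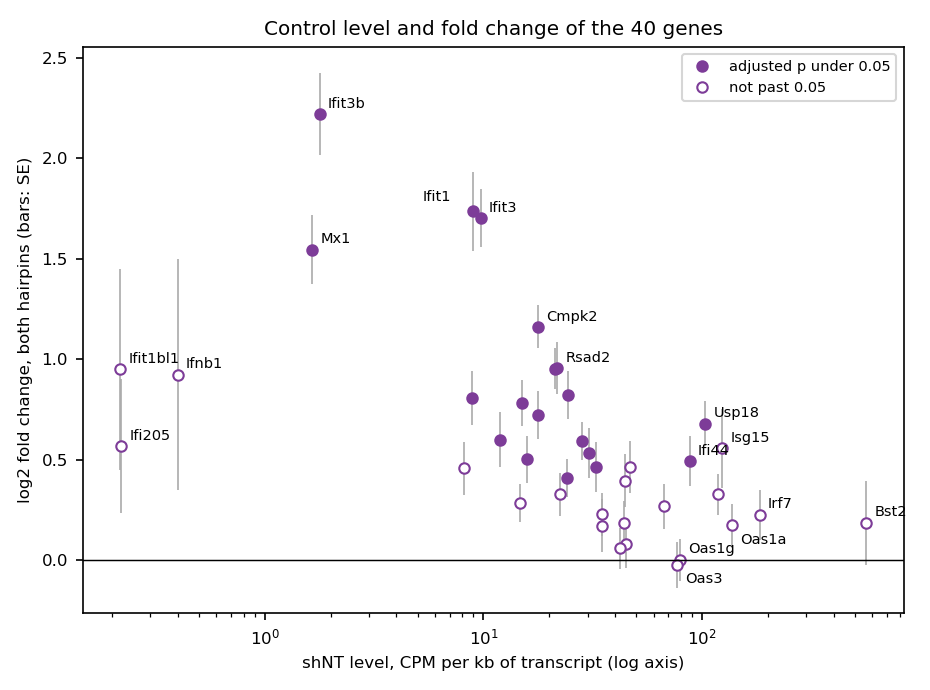
Averaged log2 fold change (vertical axis, bars are SE) against the shNT level in CPM per kb of transcript (log axis) for the 40 genes, with those past an edgeR adjusted p of 0.05 filled. The 4 genes above a log2 fold change of 1.5 (Ifit3b, Ifit1, Ifit3 and Mx1) had shNT levels of 9.70 CPM per kb or less, and Oas3, Oas1g, Irf7 and Bst2 lie at the right near 0.

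Taken alone against shNT, 15 of the 40 genes rose with shDpep2.968 (2.29% of all tested genes were higher, 2.96% lower, 5.25% either) and 17 rose with shDpep2.759 (2.72% higher, 2% lower, 4.73% either), and none fell with either. Both comparisons share the shNT libraries. Both libraries of shDpep2.968 lay above all shNT libraries for 29 of the 40 genes (20.7% of all tested genes), and both of shDpep2.759 for 31 (18.2%). Median log2 fold changes of the 40 were 0.44 and 0.56, in the same order. Ifit3b had 2.19 and 2.25, Ifit3 1.64 and 1.76, Cmpk2 1.07 and 1.25, and Oasl2 1.11 and 0.80, in that order, all past the threshold. Ifit2 (0.61 and 0.59) and Ifi44 (0.61 and 0.37) passed with shDpep2.968. Oasl1 (0.16 and 0.50), Xaf1 (0.41 and 0.59), Ifi204 (0.17 and 0.90) and Stat2 (0.21 and 0.60) passed with shDpep2.759, and Eif2ak2 (0.46 and 0.47) with neither. The count with shDpep2.968 was 5 without its replicate 2 and 8 without shNT replicate 2 or shNT replicate 3, where 0.496%, 1.65% and 1.44% of all genes were called. That with shDpep2.759 was 11 without shNT replicate 2, where 2.26% were.

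**Figure D5:**
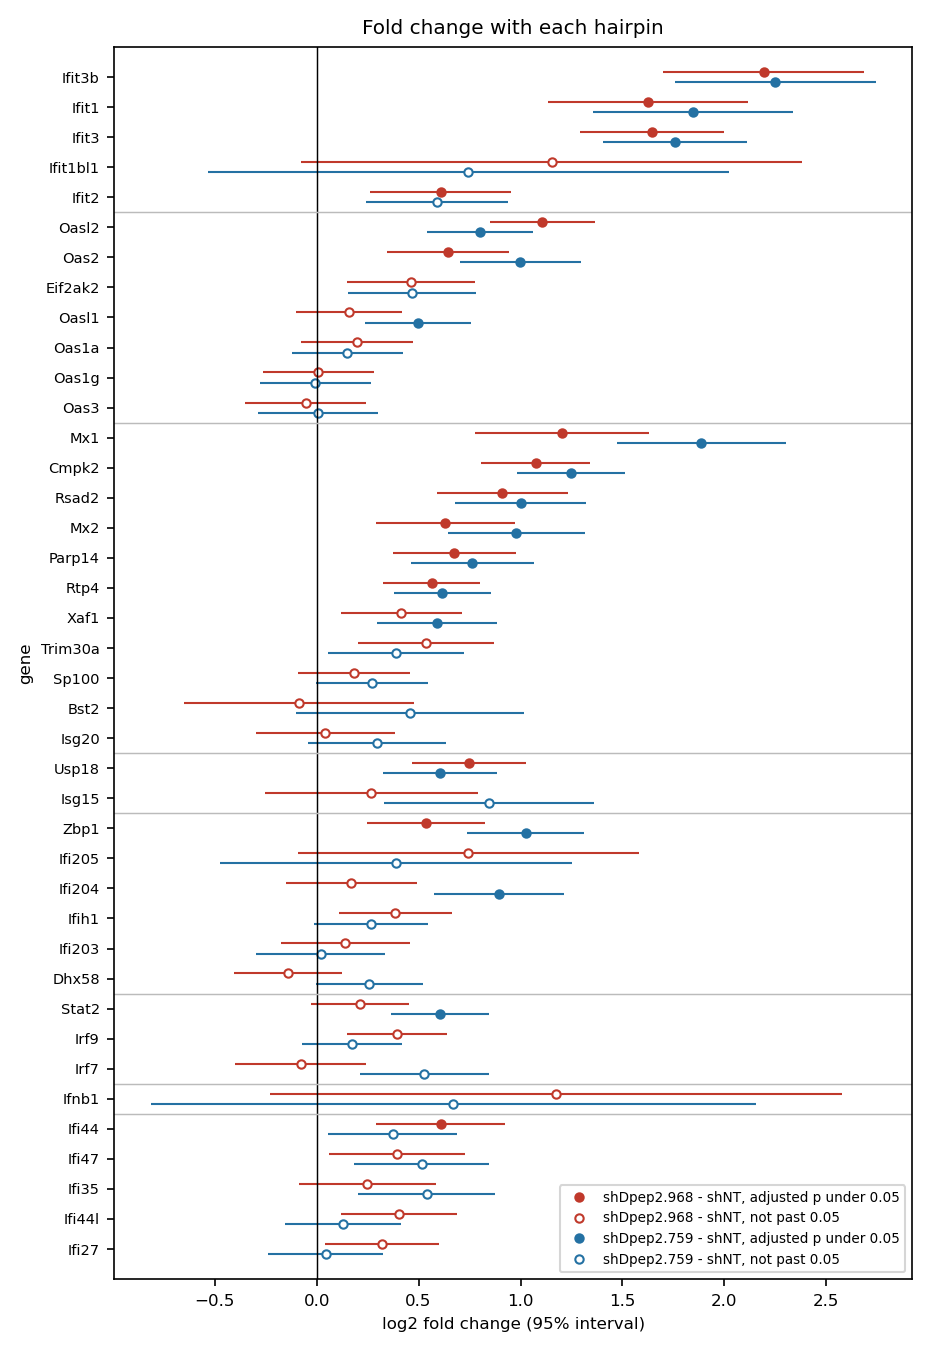
Log2 fold change against shNT of the 40 genes with shDpep2.968 (red) and with shDpep2.759 (blue), with 95% intervals and filled points where the edgeR adjusted p is under 0.05. The points lie close for Ifit3b, Ifit3 and Cmpk2, and farthest apart for Ifi204, Mx1 and Irf7 among the genes above 1 CPM.

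Compared directly, the hairpins differed in 0 of the 40 genes by edgeR (0.255% of all tested genes were higher with shDpep2.968, 0.585% lower and 0.84% either), with 10 at an unadjusted p under 0.05, as had 2002 of all 13329 genes. limma-voom called 0 and DESeq2 called 2, Ifi204 and Irf7, beside 0.878% and 2.82% of all genes. The log2 difference of shDpep2.968 minus shDpep2.759 was -0.73 for Ifi204 (95% interval -1.08 to -0.37, edgeR adjusted p = 0.0613), -0.68 for Mx1 (-1.13 to -0.24, adjusted p = 0.15) and -0.61 for Irf7 (-0.96 to -0.25, adjusted p = 0.108). These 3 were chosen after their values were seen. For Ifit3b it was -0.06 (-0.56 to 0.44) and for Cmpk2 -0.17 (-0.47 to 0.12). Both intervals hold differences in either direction, and neither interval shows that the hairpins act alike. Without shDpep2.759 replicate 2 the count was 7: Bst2, Dhx58, Ifi204, Irf7, Isg15, Mx1 and Zbp1, all lower with shDpep2.968, and 7.69% of all genes tested in that fit were called.

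The library shDpep2.759 replicate 1 held the highest value of 16 of the 40 genes, as did shDpep2.968 replicate 2, and shNT replicate 2 held the lowest value of 18. For the 7 genes with transcripts under 1500 bases, a limit set after seeing the values, the median log2 ratio of shDpep2.759 replicate 1 over replicate 2 was 0.49, against 0.09 for the other 33. Over all tested genes these medians were 0.28 and -0.02. The 7 are Isg15, Bst2, Isg20, Ifi35, Ifi27, Ifnb1 and Ifi44l. Of these only Ifi44l was lower in shDpep2.759 replicate 1 (96.0 CPM) than in replicate 2 (105 CPM). The part of transcript length in the values of the 7 was not tested beyond a correction for GC content and length. Under it 28 of the 40 genes rose (16.1% of all tested genes changed), Isg15, Irf7, Irf9, Ifih1, Oasl1 and Trim30a among those gained.

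Other genes of the pathway came from 4 lists of 74 symbols, of which 70 had a row and 61 were tested. Averaged over both Dpep2 hairpins against shNT, 18 rose and none fell, beside 3.44% of all tested genes higher and 4.15% lower. Of 4 tested ligand and receptor genes none passed, with Ifnar2 and Ifngr1 lower at an unadjusted p under 0.05. The receptor gene Ifnar2 measured 57.1, 61.1 and 57.2 CPM in the shNT libraries, 40.9 and 43.2 CPM in the shDpep2.968 pair, and 61.3 and 57.1 CPM in the shDpep2.759 pair (averaged log2 fold change -0.23, SE 0.10, edgeR adjusted p = 0.179). It fell with shDpep2.968 alone (log2 fold change -0.48, edgeR adjusted p = 0.0366).

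Of 13 tested sensors and adaptors 3 rose, beside 3.44% of all tested genes. Tlr3, a sensor of double-stranded RNA, had a log2 fold change of 0.95 (SE 0.17), with 10.2 to 13.1 CPM for shNT and 17.1 to 30.9 CPM in the hairpin libraries. The DNA sensor gene Cgas had 0.49 (SE 0.12) and the exonuclease gene Trex1 0.42 (SE 0.11), and each was called in only 2 of 7 refits with 1 library fewer. Of 28 further induced genes 14 rose, beside 3.44% of all tested genes, with a list median log2 fold change of 0.40. They held the ubiquitin ligase genes Herc6 (0.94, SE 0.13) and Trim21 (0.83, SE 0.14) and the ATPase gene Tor3a (0.65, SE 0.10), whose calls were kept whichever library was left out. The pathway count of 18 became 10 when shDpep2.968 replicate 2 was left out, 6 when shNT replicate 2 was and 7 when shNT replicate 3 was, in the same fits as above. Leaving out shDpep2.759 replicate 1 gave 17 higher and 3 lower.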

How the data were processed

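Counts per gene symbol were deposited as whole numbers for 7 libraries (TruSeq Stranded Total RNA, paired reads, per the labels' protocols). Trim Galore, Salmon and the human build hg38 are named in the submitters' processing notes, whereas the symbols are mouse. For the mouse annotation, strand setting and rounding, no source used here gives them. If the counts are Salmon estimates, reads shared by paralogs were divided by a model.

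The 40 genes, their roles and the other lists were chosen with earlier results of these data known. In R 4.3.3 with edgeR 4.0.16, genes were kept by filterByExpr (13329), TMM factors applied, and all 7 libraries fitted together with a mean for each group (4 residual degrees of freedom). P-values were Benjamini-Hochberg adjusted over all tested genes in each comparison. Full values are given for up to 4 members a role with the smallest p past 0.05, and for Ifnb1. Other members, and 3 genes a pathway list, are given by values or counts. Isg15, Irf7 and Bst2 per library and the printed promoters were chosen after seeing values. The fits were tested on simulated data in which both Dpep2 hairpins had the same changes. Differences between the hairpins and shifts of single libraries were not simulated. No pair of libraries in a group was near-identical: chi-square over its degrees of freedom was 14.9 to 43.4. Alternatives used limma 3.58.1 (voom), DESeq2 1.42.0, other size factors, no filter, a replicate block, 1 group for all hairpin libraries and each library left out. A GC and length correction, with GENCODE M21 values for 95.7% of tested genes and all 40 members, was added after seeing the data. Results for some genes of these lists are not reported here.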

Additional observations from a re-analysis of the deposited data

Results flagged for a closer look

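No group was large enough to test for a library far from the others, and none of the 40 genes differed between the hairpins past the threshold. Among the other pathway genes 3 differed, each lower with shDpep2.968 than with shDpep2.759 (edgeR adjusted p of 0.0173 to 0.0231). For Znfx1, an RNA helicase gene, the log2 difference was -0.79, with -0.14 for shDpep2.968 and 0.65 for shDpep2.759 against shNT. It measured 152, 164 and 143 CPM in the shNT libraries, 139.9 and 137 CPM in the shDpep2.968 pair, and 226 and 254 CPM in the shDpep2.759 pair. Ikbke, a kinase that activates interferon regulatory factors, had a difference of -0.82, with -0.27 and 0.54 against shNT. The PYHIN gene Ifi211 had -1.05, with -0.09 and 0.96, and shares sequence with Ifi204, which lay in the same order. All 3 calls were lost without either shDpep2.968 library or shNT replicate 3 (edgeR adjusted p of 0.0584 to 0.235), and those of Ikbke and Ifi211 also without shDpep2.759 replicate 1 (0.108 and 0.11).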

How the results depend on the processing

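The averaged count of 19 higher was 13 to 22 when a library was left out, 21 with DESeq2 size factors, 23 without a low-count filter, 23 with DESeq2, 20 with limma-voom, 15 with all hairpin libraries as 1 group and 28 with the GC and length correction, and none fell in any of these. All 19 genes kept their calls under those size factors, without the filter, and under DESeq2, limma-voom and the correction. Of all tested genes 7.67%, 6.18%, 8.76%, 7.52% and 16.1% were called in these fits, in that order. Each of these fits gained Trim30a, and all but limma-voom gained Ifi47. Isg15 was gained without the filter and under DESeq2 and the correction. Ifi35 was gained without the filter and Oasl1 under DESeq2, both also under the correction. The main fit called 7.59%, and that with 1 group 4.05%. The number of all tested genes called, 1012, was 404 with the block, 540 as 1 group, 1590 without a filter, 2144 with the correction and 321 to 1468 when a library was left out. With a replicate block the averaged count was 13 and the pathway count fell from 18 to 6, beside 3.03% of all tested genes. The count of shDpep2.968 fell from 15 to 8, beside 2.31%. Same-numbered libraries of the groups had deviations from group means correlated at -0.29 to 0.10, and differently numbered ones at -0.10 to 0.29. In a group of 2 libraries these deviations mirror each other, so the values cannot settle whether the numbers pair libraries. The main fit did not pair them. Leaving out a library gave 5 to 19 for shDpep2.968, 11 to 21 for shDpep2.759, 0 to 7 between the hairpins and 6 to 20 for the pathway genes. Between the hairpins the count was 6 without a filter, 2 with DESeq2 and 4 with the correction, beside 2.6%, 2.82% and 3.88% of all genes. The pathway count was 30 with the correction, 28 higher and 2 lower. No call among the 40 genes reversed. The ISRE core share was 46.7% in the bases before the start alone, against 53.3%. Low counts limit Ifnb1, Ifit1bl1 and Ifi205. The causes of these shifts were not tested.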
